A study of Mus musculus with 28 samples.

Results

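The 55 genes described here encode the chains of collagens (44 genes) and laminins (11 genes), the main structural proteins of the extracellular matrix. They are all genes of the exonic count table, which lists 23453 genes, whose symbol is Col or Lam followed by the numbers and letters of a chain, a rule that uses the symbol alone. The table holds RNA-seq counts of 28 single cells of the mouse cortex. By the sample labels, 8 are astrocytes and 12 are neurons from primary culture, both of genotype C57/BL6 and picked with a pipette, and 8 are interneurons of genotype C57/BL6/N, drawn by patch clamp pipette out of acute slices. The labels give no age for the interneurons. For the cultured cells they describe a perfused male of 3 months, while the study's reporting summary describes cultures from embryonic brain. The cultured cells were made into libraries and sequenced with another kit and instrument than the slice cells. No label names the animal or culture of a cell.

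The columns of the count tables carry codes instead of sample names, and 0 of the 28 codes matched a sample label. No column was therefore given a cell type, and all 28 are taken as 1 pooled sample, with no test between columns and no replicate error. The codes fall into 3 runs, and values are given by run as lowest, median and highest column. They are the 8 columns BRP564 and BRP566 to BRP572, called the higher-numbered BRP columns, the 12 columns between BRP528 and BRP543, called the lower-numbered BRP columns, and the 8 F columns. Exonic counts per column ran from 12969692 to 19798892 in the higher-numbered BRP columns, from 17483754 to 26770944 in the lower-numbered BRP columns and from 838343 to 14831505 in the F columns. A level is the exonic count of a gene per 1000000 exonic counts of its column (CPM), and a gene was taken as detected in a column with at least 10 exonic counts.

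F11 and F12 stood apart from the other F columns. Their Pearson correlation across genes, of log2(CPM + 1), was 0.954, against 0.489 for the next F pair and a median of 0.276 over the 28 F pairs. Their counts differed by more than sampling noise (chi-square per degree of freedom 17.6). Amplified reads are not independent molecules, so this value cannot tell whether the columns come from 1 cell or 2. Both were kept, and the F medians that are given were also computed with both counted as 1 column. The columns also differed in the markers of cell types. The summed level of 9 astrocyte markers was 2674 to 7155 CPM in the higher-numbered BRP columns, 208 to 2463 CPM in the lower-numbered BRP columns and 1.19 to 4363 CPM in the F columns. Of the 9, Slc1a2 alone had a higher median in the lower-numbered BRP columns, 804 CPM against 192 CPM in the higher-numbered. Its highest levels were 2459 CPM in the lower-numbered BRP columns and 4350 CPM in the F columns. The summed level of 6 neuron markers was 299 to 801 CPM, 4737 to 8469 CPM and 1608 to 16746 CPM in the same order. For 3 GABAergic neuron markers the sums were 0 to 42.6 CPM, 0.0572 to 2714 CPM and 478 to 11671 CPM. For 2 glutamatergic neuron markers they were 0 to 133 CPM, 0 to 1021 CPM and 0 to 4.92 CPM. For 7 microglia markers they were 1.03 to 36.3 CPM, 0 to 46.6 CPM and 0.0674 to 2093 CPM. For 6 mural cell markers the sums were 3358 to 9176 CPM, 0.974 to 330 CPM and 0 to 1.66 CPM, and Acta2 held nearly all of the first, with Kcnj8 and Anpep at 0. For 8 markers of the oligodendrocyte lineage they were 563 to 1312 CPM, 0.517 to 1306 CPM and 0 to 3387 CPM, with Mog and Mag at 0 in the higher-numbered BRP columns. For 7 fibroblast markers they were 6.79 to 77.9 CPM, 0 to 257 CPM and 0 to 14.3 CPM, with Slc6a13 and Aldh1a2 at 0 in the higher-numbered BRP columns. For 6 endothelial markers they were 1.79 to 29.5 CPM, 0 to 31.5 CPM and 0 to 0.345 CPM, and Cldn5 was at 0 in every column. The ependymal and choroid markers Foxj1 and Ttr summed to 81.2 to 247 CPM, 0 to 43.7 CPM and 0 to 4406 CPM, so the BRP runs did not overlap, and Ttr was at 0 in the higher-numbered BRP columns. At least 4 of the 8 higher-numbered BRP columns detected 9 of the 9 astrocyte markers, 4 of the 6 neuron markers, 2 of the 6 mural, 6 of the 8 oligodendrocyte, 2 of the 7 fibroblast, 1 of the 6 endothelial and 1 of the 2 ependymal and choroid markers. The same held for 1 of the 3 GABAergic, 1 of the 7 microglia and 0 of the 2 glutamatergic markers. Among the lower-numbered BRP columns, BRP529 held the most Aqp4, Olig1 and Pdgfra, at 418, 831 and 257 CPM. BRP541 held Olig1 at 503 CPM and Pdgfra at 200 CPM. The part of these differences in the levels below was not tested.

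Collagens are trimers of chains wound into a triple helix. Fibrillar collagens form the fibres of connective tissue, collagen IV forms the sheet-like network of basement membranes, and FACIT collagens sit on the surface of fibrils. Laminins are trimers of an alpha, a beta and a gamma chain, which polymerize on the cell surface and start the assembly of a basement membrane. In the brain, basement membranes line the blood vessels and the pial surface, where the end feet of astrocytes meet them. Each chain is the product of its own gene, so a protein of different chains needs RNA of each gene.

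The 6 collagen IV genes lie in 3 pairs that are read in opposite directions from neighbouring starts, which is why 2 pairs are shown with the sequence around their starts (300 bases from RefSeq, build GRCm38.p6, 250 before the start and 50 from the start on, 5′ to 3′ on the strand of the gene). In the GENCODE annotation of the same build, the starts of Col4a1 and Col4a2 lay 21 bases apart, those of Col4a4 and Col4a3 lay 72 bases apart and those of Col4a6 and Col4a5 lay 1309 bases apart. The windows of Col4a1 (chr8:11312777-11313076, minus strand) and Col4a2 (chr8:11312555-11312854, plus strand) share 78 bases, and those of Col4a5 (chrX:141475169-141475468, plus strand) and Col4a6 (chrX:141474027-141474326, minus strand) share none. Capitals mark matches, on either strand, to the GC box GGGCGG and the CCAAT box CCAAT.
Col4a1: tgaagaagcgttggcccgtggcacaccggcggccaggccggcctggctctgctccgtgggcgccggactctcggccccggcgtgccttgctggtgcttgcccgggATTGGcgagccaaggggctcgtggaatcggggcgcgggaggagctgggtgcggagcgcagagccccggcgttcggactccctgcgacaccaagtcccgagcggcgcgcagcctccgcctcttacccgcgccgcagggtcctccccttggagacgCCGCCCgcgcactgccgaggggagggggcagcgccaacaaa
Col4a2: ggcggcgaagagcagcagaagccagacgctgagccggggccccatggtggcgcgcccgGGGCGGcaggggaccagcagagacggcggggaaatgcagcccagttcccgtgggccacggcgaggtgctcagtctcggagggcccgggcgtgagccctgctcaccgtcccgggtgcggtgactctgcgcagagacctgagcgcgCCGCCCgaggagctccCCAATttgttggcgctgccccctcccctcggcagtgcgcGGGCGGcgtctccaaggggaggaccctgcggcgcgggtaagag
Col4a5: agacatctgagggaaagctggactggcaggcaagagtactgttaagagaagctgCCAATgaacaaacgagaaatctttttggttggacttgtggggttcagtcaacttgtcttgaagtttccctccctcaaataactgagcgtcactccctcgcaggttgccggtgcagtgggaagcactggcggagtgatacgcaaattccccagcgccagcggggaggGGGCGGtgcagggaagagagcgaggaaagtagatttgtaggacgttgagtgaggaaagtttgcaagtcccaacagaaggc
Col4a6: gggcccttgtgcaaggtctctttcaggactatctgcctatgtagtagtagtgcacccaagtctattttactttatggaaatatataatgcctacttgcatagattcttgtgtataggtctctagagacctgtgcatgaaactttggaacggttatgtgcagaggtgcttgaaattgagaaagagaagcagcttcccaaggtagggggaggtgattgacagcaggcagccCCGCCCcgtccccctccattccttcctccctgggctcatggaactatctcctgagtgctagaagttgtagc

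No window held the TATA box letters TATAAA on either strand, which 13.6% of the 32851 promoter windows of the table held. GGGCGG was found 1 time in Col4a1, 3 times in Col4a2, 1 time in Col4a5 and 1 time in Col4a6, and 35.7% of all windows held it. CCAAT was found 1 time in each window but that of Col4a6, where it was not found, and 37.4% of all windows held it. GC content was 74% and 73.7% in the windows of Col4a1 and Col4a2, and 52.7% and 48.3% in those of Col4a5 and Col4a6. Over the genes of both families, 40 of 55 had a window, 44 windows in all, and 26 of these held GGGCGG. A match describes these letters and shows no binding.

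Of the 55 genes, 54 had an exonic count. Col15a1, a multiplexin of basement membrane zones, had 0 counts (exact Poisson upper bound 3.69, counting error only). In at least 1 column, 52 genes reached 10 counts. Lama1, the alpha chain of early embryonic laminin, had 16 counts in all, and Lamc3 had 2. In at least 1 higher-numbered BRP column 37 genes (67.3%) were detected, beside 58.2% of all genes of the table. In a lower-numbered BRP column the number was 45 (81.8%), beside 62.1%. In an F column it was 19 (34.5%), close to the 33.1% of all genes, and 14 of the 19 were detected in exactly 1 F column. In all 8 higher-numbered BRP columns, 14 genes were detected, and in all 12 lower-numbered BRP columns, 0 genes. For these counts, and for the genes detected in exactly 1 F column, no share of all genes is given here. A share of 41.8% of the genes (95% exact binomial interval 28.7% to 55.9%) was detected in at least 4 of the 8 higher-numbered BRP columns, beside 45.7% of all genes of the table. In at least 6 of the 12 lower-numbered BRP columns the share was 21.8% (11.8% to 35.0%), beside 40.5% of all genes. In at least 4 of the F columns it was 1.82% (0.0460% to 9.72%), which is Col19a1 alone, beside 5.88% of all genes. With every column thinned to 2000000 exonic counts, which left out F16, the genes with a count numbered 21 to 29 per higher-numbered BRP column, 9 to 26 per lower-numbered BRP column and 3 to 15 per F column. Without thinning these numbers were 26 to 35, 17 to 34 and 6 to 30.

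**Figure D1:**
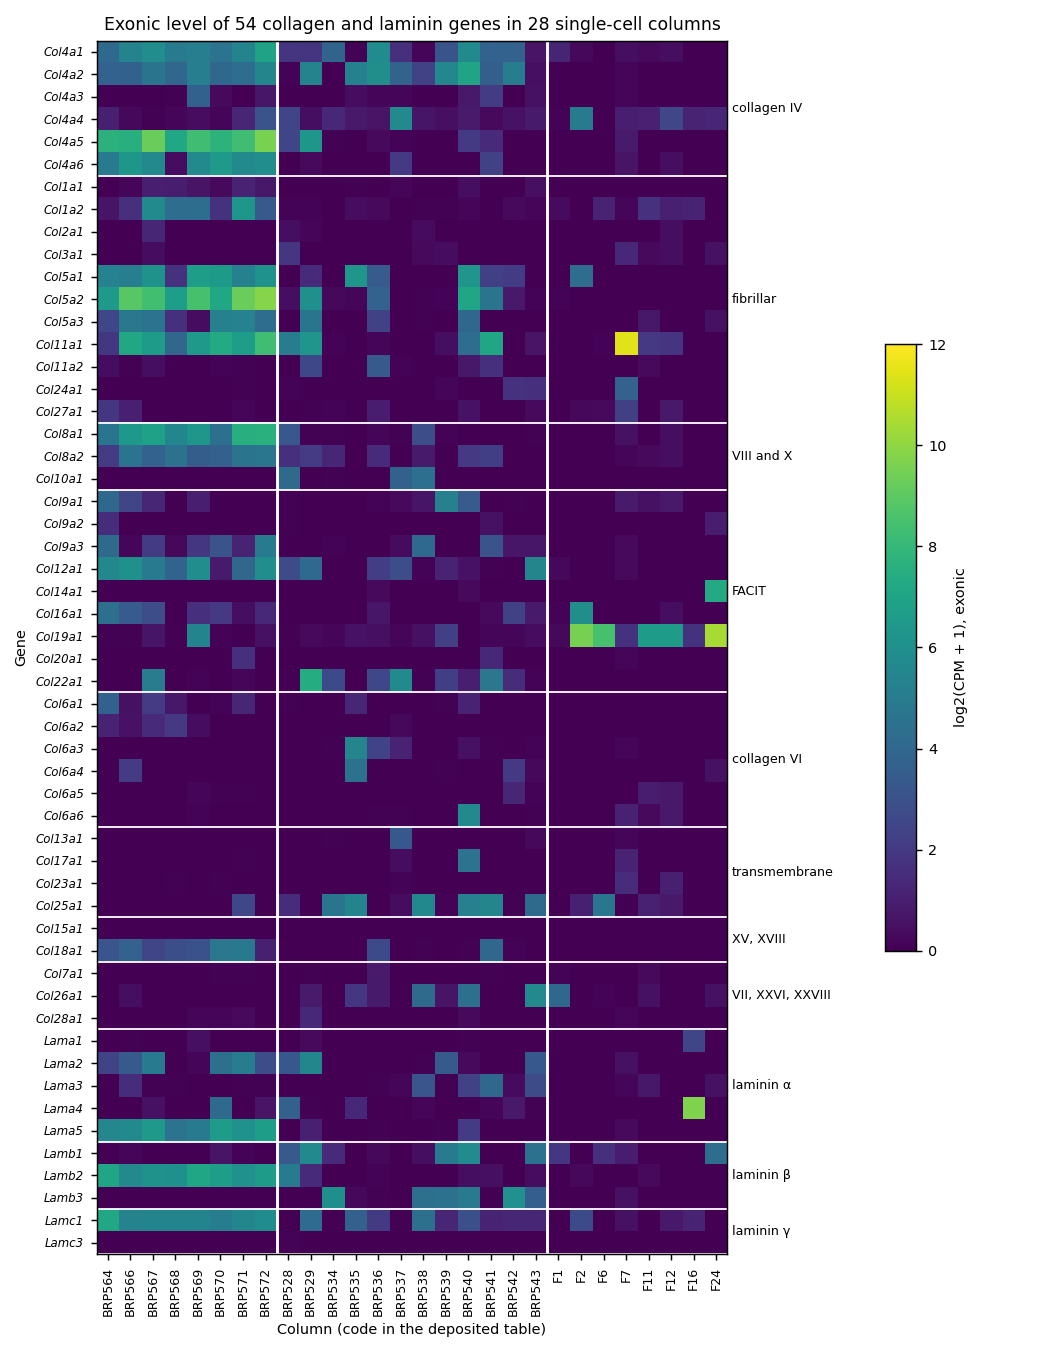
Exonic level of 54 of the 55 genes (rows, by class) in the 28 columns (by code), as log2(CPM + 1). White lines part the classes and the 3 runs of codes. The higher-numbered BRP columns on the left hold collagen IV, fibrillar and laminin genes together, while most F columns on the right hold 1 bright gene each.

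Together, the 55 genes took 565 to 2943 CPM of the higher-numbered BRP columns, with a median of 1427 CPM. In the lower-numbered BRP columns they took 112 to 677 CPM, with a median of 173 CPM. In the F columns they took 20.5 to 2850 CPM, with a median of 612 CPM, or 833 CPM with F11 and F12 counted as 1 column, and 391 CPM without any 1 of F2, F7, F16 or F24. With edgeR TMM factors the 3 medians were 968, 132 and 1387 CPM and with DESeq2 size factors 1330, 196 and 3069 CPM, so the median of the higher-numbered BRP columns lay above that of the lower-numbered in each scaling, and the F median lay below it in CPM and above it with both kinds of factor. The higher- and lower-numbered BRP columns thus overlapped through BRP568, the lowest of the first, and BRP540 and BRP529, the highest of the second, at 565, 677 and 604 CPM. The laminin genes alone took 140 to 340 CPM in the higher-numbered BRP columns and 0.187 to 116 CPM in the lower-numbered BRP columns, with no overlap. Single genes filled the F columns. The top gene held 75.7% to 98.9% of the summed level of an F column, against 19.0% to 34.0% of a higher-numbered BRP column and 18.6% to 56.3% of a lower-numbered BRP column. It was Col19a1 in F2, F6, F11, F12 and F24, Col11a1 in F7, Lama4 in F16 and Col26a1 in F1.

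**Figure D2:**
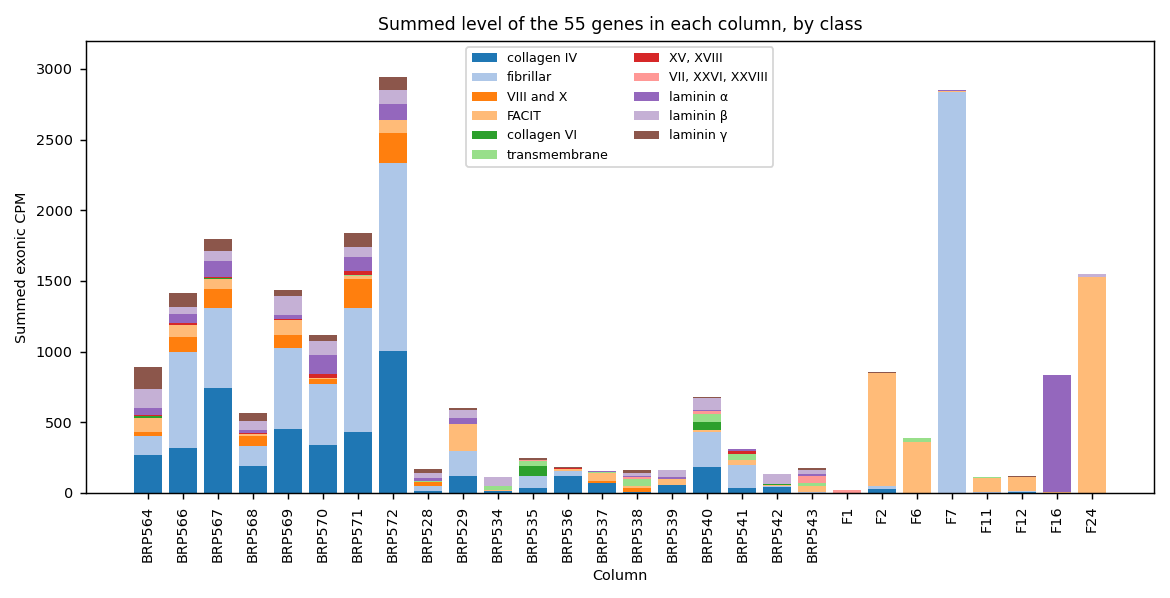
Summed exonic level (CPM, linear axis from 0) of the 55 genes in each column, stacked by class. The higher-numbered BRP columns mix collagen IV, fibrillar collagens and laminins. The tall F bars are mostly of 1 class each, with 2835 CPM fibrillar of 2850 CPM in F7 and 1525 CPM FACIT of 1548 CPM in F24.

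Collagen IV is the network collagen of basement membranes. Its most abundant gene in the higher-numbered BRP columns was Col4a5, the alpha 5 chain, at 148 CPM in the lowest, 267 CPM in the median and 771 CPM in the highest column (BRP572). In the lower-numbered BRP columns the median of Col4a5 was 0.0611 CPM, and the highest column, BRP529, held 80.3 CPM before the next at 4.63 CPM. BRP529 also held Aqp4, Olig1 and Pdgfra, at the levels given above. In the F columns Col4a5 reached 0.805 CPM. Every higher-numbered BRP column thus lay above every other column for this gene. Its neighbour Col4a6, the alpha 6 chain, had 0.303 to 86.9 CPM with a median of 51.9 CPM in the higher-numbered BRP columns, where BRP568 alone was under 10 counts. Elsewhere Col4a6 reached 4.21 CPM.

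Col4a1 and Col4a2, the chains of the common collagen IV trimer, were the collagens detected in most columns, 19 and 17 of the 28. Col4a1 had 16.3 to 121 CPM (median 37.6) in the higher-numbered BRP columns and 0.0940 to 56.2 CPM (median 5.16) in the lower-numbered BRP columns. Col4a2 had 12.3 to 45.2 CPM (median 17.2) in the former, while the latter ran from 0 to 128 CPM (median 22.7). So Col4a2, unlike Col4a5, had its highest column (BRP540) among the lower-numbered BRP columns, and its columns of both runs were mixed. Among F columns Col4a1 reached 1.35 CPM and Col4a2 reached 0.115 CPM. Col4a4, a chain known from the kidney filter, was detected in 15 columns at low level, with 51.3 CPM in BRP537 and 28.9 CPM in F2 and at most 7.33 CPM elsewhere. Its head-to-head neighbour Col4a3 was detected in 4 columns and reached 12.1 CPM in BRP569.

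Among the fibrillar collagens, Col5a2 led. This chain of collagen V, which joins collagen I in thin fibrils, had 85.2 to 910 CPM with a median of 344 CPM in the higher-numbered BRP columns. In the lower-numbered BRP columns its median was 0.269 CPM, with 136 CPM in BRP540 and 63.8 CPM in the next. The only overlap of these 2 runs came from BRP540. In the F columns it reached 0.0674 CPM. Its partner chain Col5a1 had 2.30 to 103 CPM (median 54.6) in the higher-numbered BRP columns and 0 to 82.0 CPM (median 0.850) in the lower-numbered BRP columns, and it was detected in 1 F column, F2, at 18.6 CPM. The third collagen V gene, Col5a3, had 0.308 to 39.5 CPM (median 20.7) in the higher-numbered BRP columns, and it was detected in 3 lower-numbered BRP columns and no F column.

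Col11a1, the alpha 1 chain of collagen XI of cartilage fibrils, had 2.79 to 319 CPM (median 97.4) in the higher-numbered BRP columns and 0 to 134 CPM (median 0.252) in the lower-numbered BRP columns. A single F column, F7, held 2817 CPM, the highest level of any of the 55 genes in any column, before the next F column at 2.96 CPM. F7 also held markers of other cells, Ttr at 3570 CPM, Foxj1 at 836 CPM and Olig1 at 3210 CPM. Their part in the Col11a1 level was not tested. F7 had 53.5% of the 45760 exonic counts of Col11a1 (95% exact Poisson interval 45342 to 46181).

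The genes of the most abundant chains of bone, skin and cartilage were scarce. Col1a1, the major chain of collagen I, reached 1.32 CPM in BRP571 and had 102 counts in all. Col3a1, the chain of collagen III, had 89 counts and Col2a1, the chain of collagen II, had 41. Col1a2, the other chain of collagen I, stood apart from Col1a1: it had 0.558 to 80.8 CPM (median 13.7) in the higher-numbered BRP columns and at most 0.329 CPM in the lower-numbered BRP columns, with no overlap. Its F columns ran from 0 to 2.28 CPM. The remaining fibrillar genes, Col11a2, Col24a1 and Col27a1, reached 9.50, 12.5 and 3.80 CPM.

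The network collagens Col8a1 and Col8a2, chains of collagen VIII of vessel walls and the cornea, were detected in all 8 higher-numbered BRP columns. Col8a1 had 19.7 to 192 CPM (median 82.0) there, against 0 to 8.72 CPM (median 0.0461) in the lower-numbered BRP columns and at most 0.460 CPM in the F columns. The higher-numbered BRP columns of Col8a1 overlapped with no other column. Col8a2 had 3.29 to 25.3 CPM (median 17.6) and overlapped with the lower-numbered BRP columns, which reached 3.75 CPM. Col10a1, the collagen of hypertrophic cartilage, was detected in 3 lower-numbered BRP columns, at 12.3 to 20.0 CPM, and in no other. Its exons overlap those of Nt5dc1 on the opposite strand.

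**Figure D3:**
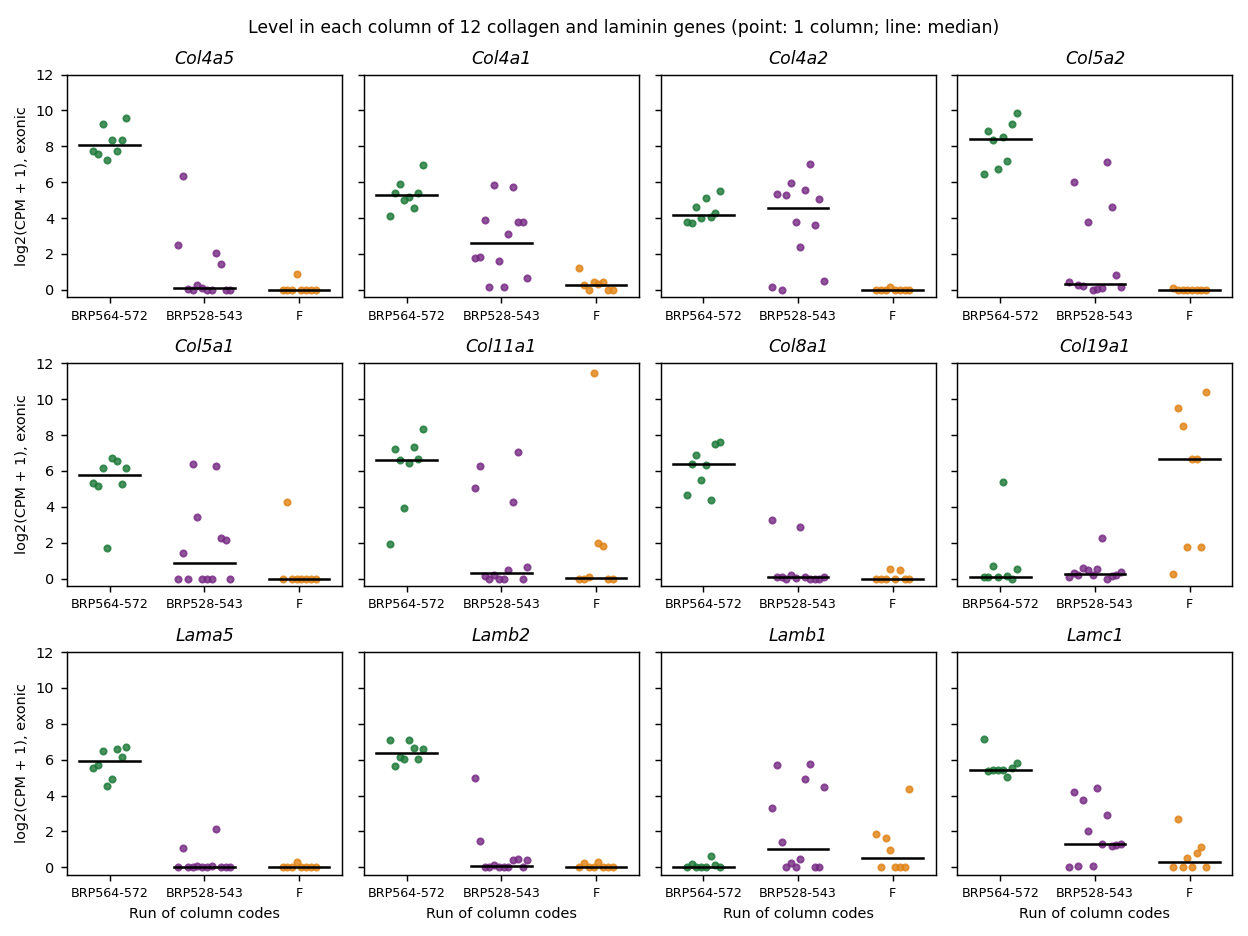
Exonic level, as log2(CPM + 1), of 12 collagen and laminin genes in each column (points), by run of column codes, with the median of the run (line). Col4a5, Col8a1, Lama5, Lamb2 and Lamc1 in BRP564 to BRP572 lie above all other columns, Col4a2 is mixed over both BRP runs, and Col19a1 is high in F columns.

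The FACIT collagens differed among themselves. Col12a1, the alpha 1 chain of collagen XII of tendon and fascia, had 0.808 to 63.0 CPM (median 38.8) in the higher-numbered BRP columns, 0 to 42.9 CPM (median 0.892) in the lower-numbered BRP columns and at most 0.230 CPM in the F columns. Col19a1, the chain of collagen XIX, was an F column gene. F1 held 0.202 CPM, the median was 99.6 CPM, and F24, F2 and F6 held 1362, 742 and 362 CPM. F11 and F12 were almost equal at 99.5 and 99.7 CPM. The median did not change when they were counted as 1 column. In the BRP columns Col19a1 reached 41.6 CPM in BRP569, with no other above 3.89 CPM. No gene of the table had all 8 F columns above every BRP column (0% of 15977 genes with at least 10 counts in a column), so Col19a1 too overlapped, through F1, F7 and F16. Outside the rule for named genes, and chosen after their values were seen, Col22a1 had 172 CPM in BRP529 and 0 in every F column, and Col14a1 had 163 CPM in F24 and at most 0.229 CPM elsewhere. Col9a1 and Col9a2, chains of collagen IX, were detected in 7 columns and 1 column and reached 36.7 and 1.98 CPM. The other FACIT genes Col9a3, Col16a1 and Col20a1 reached 29.8, 59.8 and 2.19 CPM.

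Collagen VI, whose chains form beaded filaments in muscle and skin, was low. Col6a1 had 0 to 12.2 CPM (median 0.587) in the higher-numbered BRP columns and at most 1.46 CPM in the lower-numbered BRP columns, and Col6a2 had 0 to 3.03 CPM and at most 0.187 CPM. Neither had a count in an F column. Col6a6 led the class with 51.1 CPM in BRP540, which held 98.1% of its 910 counts. Of the membrane-spanning collagens, Col25a1, a collagen of neurons, had a median of 9.27 CPM and a maximum of 48.3 CPM in the lower-numbered BRP columns, where 7 of 12 columns detected it. It was detected in 1 higher-numbered BRP column, at 4.94 CPM, and in 1 F column, at 25.1 CPM. Col18a1, the source of the fragment endostatin, had 1.09 to 27.8 CPM (median 7.62) in the higher-numbered BRP columns, was detected in 2 lower-numbered BRP columns and had 0 counts in the F columns. Col26a1 was detected in 7 lower-numbered BRP columns, with 48.6 CPM in BRP543, and in F1 at 15.5 CPM. The rest of these classes, Col6a3, Col6a4, Col6a5, Col13a1, Col17a1, Col23a1, Col7a1 and Col28a1, were detected in 1 to 3 columns each.

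The laminin chains differed in where they were high. Lama5, the alpha chain of most adult basement membranes, had 22.4 to 105 CPM (median 60.7) in the higher-numbered BRP columns, against 0 to 3.43 CPM in the lower-numbered BRP columns and at most 0.230 CPM in the F columns. Lamb2, the beta chain of synaptic and vascular laminins, had 49.8 to 137 CPM (median 83.3), while BRP528 held 30.1 CPM, the other lower-numbered BRP columns at most 1.75 CPM and the F columns at most 0.228 CPM. Lamc1, the gamma chain of most laminins, had 32.2 to 141 CPM (median 41.8), against 0 to 20.7 CPM (median 1.48) and 0 to 5.42 CPM. For each of these 3 chains every higher-numbered BRP column lay above every other column.

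The other beta chains were placed otherwise. Lamb1, the most widespread beta chain, had at most 0.556 CPM in the higher-numbered BRP columns. In the lower-numbered BRP columns it ran from 0 to 53.5 CPM (median 1.03), with 6 of 12 columns detected, and in the F columns from 0 to 19.4 CPM with 3 detected. Lamb3, the beta chain of an epithelial laminin, had 0 counts in every higher-numbered BRP column and a median of 5.61 CPM and a maximum of 66.8 CPM (BRP542) in the lower-numbered BRP columns. Lama3, the alpha chain of the same epithelial laminin, was detected in 5 columns and reached 15.3 CPM in BRP541. Lama2, the alpha chain of muscle laminin, had 0 to 31.4 CPM (median 7.81) in the higher-numbered BRP columns and reached 44.3 CPM in BRP529. Lama4, an alpha chain of vascular laminins, reached 16.0 CPM in the BRP columns and 822 CPM in F16, with 0 in the 7 other F columns. F16 was the shallowest column, at 838343 exonic counts, and held 2093 CPM of Csf1r, a receptor of microglia, whose part in the Lama4 level was not tested.

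Between genes, levels were compared per kilobase of annotated exon. In the higher-numbered BRP columns the order of the medians was Col4a5 at 39.7 CPM per kb (22.0 to 115), Col5a2 at 35.9 (8.88 to 94.8), Lamb2 at 13.7 (8.19 to 22.5), Col8a1 at 10.5 (2.52 to 24.5) and Col11a1 at 7.64 (0.219 to 25.03). Neighbours in this order overlapped. Lama5, Lamc1 and Col4a1 followed at 5.33, 5.05 and 5.04 CPM per kb, behind Col4a6 and Col5a1. In the lower-numbered BRP columns Col4a2 had the highest median, 3.43 CPM per kb (0 to 19.3), and in the F columns Col19a1, with 14.5 CPM per kb (0.0294 to 198).

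Of the 52 genes with at least 10 counts in a column, 6 had all 8 higher-numbered BRP columns above all 12 lower-numbered BRP columns. They were Col1a2, Col4a5, Col8a1, Lama5, Lamb2 and Lamc1, a share of 11.5%, beside 3.28% of 15977 genes over the whole table. The F columns lay below as well for 5 of them, all but Col1a2, beside 2.57% of all genes. None of the 52 had the lower-numbered BRP columns wholly above the higher-numbered, beside 2.58% of all genes. By medians, on the log2(CPM + 1) scale, 17 genes (32.7%) were over 4-fold higher in the higher-numbered BRP columns, beside 16.9% of all genes, and 2, Col25a1 and Lamb3, were over 4-fold lower, beside 8.51%. The median difference over the 52 genes was 0, as over all genes, since many medians are near 0 in both runs. The 6 genes were the same with edgeR TMM factors, with DESeq2 size factors and without the 10 genes of most counts. Col1a2 was lost when levels under 10 counts were taken as 0, and after thinning to 2000000 counts Col8a2 was in its place. Leaving out 1 column in turn gave 6 or 7 genes, and the 6 were among them each time. Col5a2 joined without BRP540, Col4a6 without BRP568, and Col8a2 without BRP564 or BRP541.

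The counts of many of these genes came largely from 1 column. Of the 52 genes, 23 (44.2%) had over 50% of their exonic counts in a single column, beside 25.8% of all 15977 genes. Detected in 1 column only were 8 of the 52, for which no share of all genes is given here. The highest level of a gene was in a higher-numbered BRP column for 23 genes, in a lower-numbered BRP column for 21 and in an F column for 8 of the 52, beside 32.7%, 42.0% and 25.3% of all genes.

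Chains that assemble into 1 protein were set side by side over the 28 columns, with Spearman's rho as a description. The runs of codes differ in level for many genes, so the value within each run is given too, over 8, 12 and 8 columns, and depth in the F run itself ran from 838343 to 14831505 exonic counts. Every chain paired here was detected in at most 3 F columns, so the F values rest on few counts and many ties at 0. Col5a1 and Col5a2 had a rho of 0.77 over all columns, with 0.14 in the higher-numbered BRP columns, 0.65 in the lower-numbered and -0.14 in the F columns. Both were detected in 13 columns, Col5a1 alone in 2 and Col5a2 alone in none. Each of them had a count in only 1 F column. Col4a1 and Col4a2 had 0.67, with 0.62, 0.36 and 0.25 within the runs, and both were detected in 15 columns, Col4a1 alone in 4 and Col4a2 alone in 2. Of the 3 pairs read in opposite directions, Col4a5 and Col4a6 had the highest rho over all columns, 0.81, with 0.21, 0.46 and 0.76 within runs, and both were detected in 8 columns. Neither was detected in an F column. The value of 0.76 there rests on 7 counts of Col4a5 and 5 of Col4a6 in F7, and 1 of Col4a6 in F12. For Col4a3 and Col4a4, whose starts are 72 bases apart, rho was -0.07 and both were detected in 2 columns.

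For the laminins, Lama5 and Lamc1 had a rho of 0.79 over all columns and -0.12, 0.45 and 0.09 within runs, and Lama5 was detected in no column without Lamc1. Lamb2 and Lamc1 had 0.72, with 0.36, -0.06 and 0.11 within runs. For both pairs the value over all columns was larger than that within each run. Lamb1 and Lamc1 went the other way, with -0.30 over all columns and -0.63, 0.27 and -0.70 within runs. In the higher-numbered BRP columns Lamb1 had a count in only 3 columns and was detected in 1. Of the columns with Lamb1 detected, 5 had Lamc1 and 5 did not, and 13 columns had Lamc1 alone. Lama4 and Lamc1 had 0.13, with 14 columns of Lamc1 alone. Of the remaining pairs, Col1a1 and Col1a2 had 0.61, with Col1a2 alone in 5 columns and Col1a1 alone in none, Col6a1 and Col6a2 had 0.45, and Col9a1 and Col9a2 had 0.02.

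**Figure D4:**
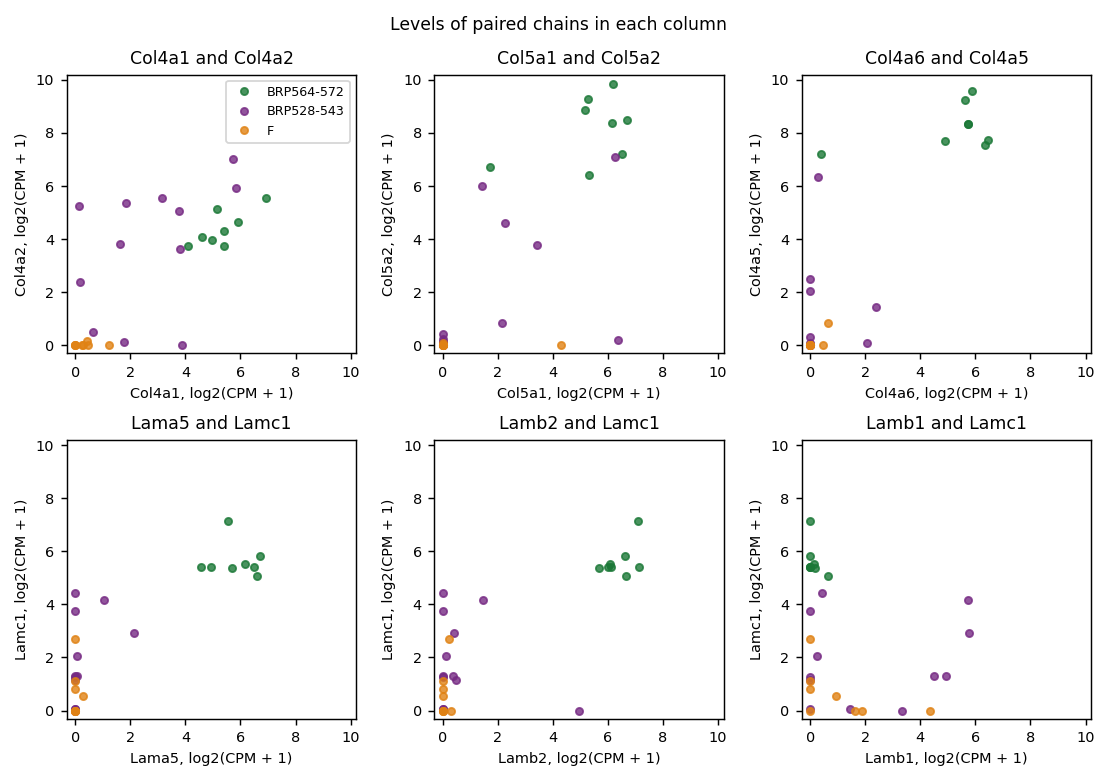
Exonic levels, as log2(CPM + 1), of 6 pairs of chains, 1 point per column, coloured by run of column codes. The points of BRP564 to BRP572 lie high on both axes for Lama5 with Lamc1 and Lamb2 with Lamc1, and along the Lamc1 axis with Lamb1 near 0 in the last panel.

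All 55 genes are also listed in the intronic table. Intronic counts, which come from unspliced RNA or from other sequence inside a gene, made up 65.5% of the exonic and intronic counts of the 55 genes, beside 19.6% over all genes. A single gene held most of these counts. Col19a1 had 461878 intronic and 12792 exonic counts, 78.5% of the intronic counts of both families, and was number 13 of the 20422 genes of the intronic table. Without it the share of the families was 29.9%. Per 1000000 intronic counts, Col19a1 held 1470 to 22712 in the 20 BRP columns and 7986 in F1, but 32.2 to 891 in the 7 other F columns, where F24, F2 and F6 had their high exonic level. The columns with the highest intronic level of Col19a1 were thus not those with the highest exonic level. The gene spans chr1:24261890-24587472 on the minus strand, with 319 kb of introns, and the annotation places 1 other gene inside it, the small nucleolar RNA Gm26418 on the same strand.

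By run, the intronic share of the 55 genes without Col19a1 was 17.7% in the higher-numbered BRP columns, 52.1% in the lower-numbered and 32.1% in the F columns, beside 9.13%, 18.6% and 41.1% over all genes. As a median over single genes, Col19a1 included, it was 37.4%, 51.7% and 89.0%, beside 10.8%, 20.8% and 75% over all genes. Without Col19a1 the F columns thus lay below all genes in the pooled share. With Col19a1 their pooled share was 49.2%, above the 41.1% of all genes, and the median over genes also lay above. Of the 39304 exonic counts of the 55 genes in the F columns, 24486 were those of Col11a1 in F7. More intronic than exonic counts were found for 26 of the 55 genes, and the share of all genes with this is not given here. Among the 26 were Lama2, the next highest, with 12960 intronic and 3401 exonic counts, and Lamc1 with 11419 and 8798. At the other end, Lamb2 had 3 intronic and 12644 exonic counts, with 4.71 kb of introns, and Lama5 had 151 and 9012, with 38.1 kb. Col17a1, which has 39.7 kb of introns, had 416 exonic and 0 intronic counts. Col15a1, without an exonic count, had 324 intronic counts, of which 57.4% were in BRP539.

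**Figure D5:**
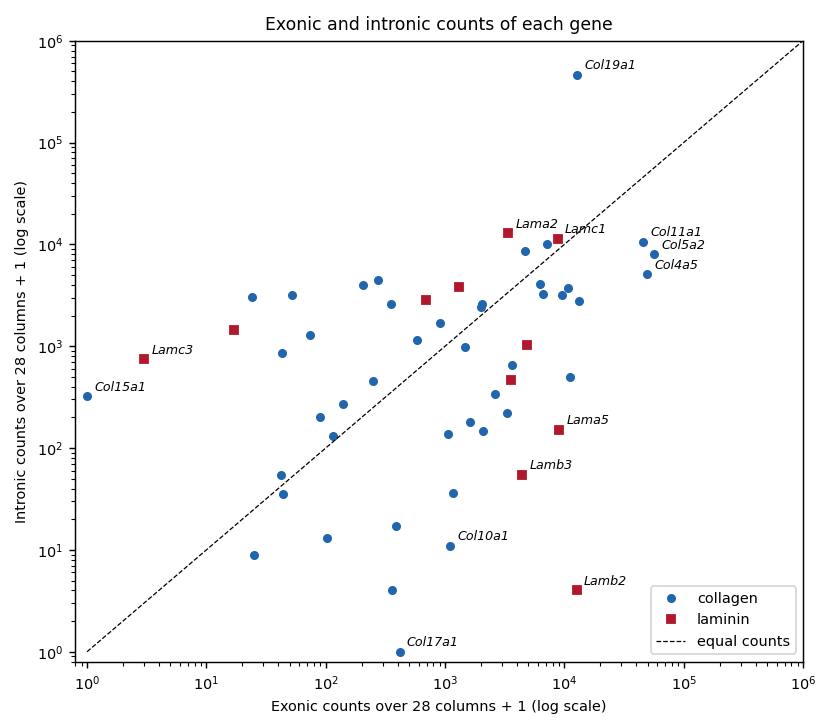
Exonic and intronic counts of each gene summed over 28 columns, with 1 added, on log axes. Circles are collagens, squares are laminins and the dashed line marks equal counts. Col19a1 stands far above the line at 461878 intronic counts, and Lamb2 far below it at 3.

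Positions bear on some of these counts. Exons of 13 of the 55 genes overlap exons of a gene on the opposite strand. Col4a1 and Col4a2 overlap each other only over chr8:11312805-11312826, beside exon lengths of 7.464 and 6.619 kb. Col10a1 overlaps Nt5dc1. The rest of the 13 are Col4a3, Col5a1, Col6a4, Col6a6, Col9a3, Col15a1, Col22a1, Lama2, Lama3 and Lamc3. Exons of 3 genes (Col3a1, Col7a1 and Col20a1) overlap a gene on the same strand. Whether strand was used in counting is not given in the sources used here. Reads within the stretches shared by genes on opposite strands therefore cannot be told apart here. For genes on the same strand, strand would not part them. Neighbours on 1 chromosome could still differ widely. Col3a1 and Col5a2, whose ends on chromosome 1 are 24615 bases apart, had 89 and 56675 exonic counts and were detected together in no column.

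The RNA of genes whose proteins fold, trim and cross-link collagen was measured beside that of the chains. Of 29 such genes, 27 had at least 10 counts in a column. For 4 of them every higher-numbered BRP column lay above every lower-numbered BRP column, and for none the reverse, beside the 3.28% and 2.58% of all genes. They were Serpinh1, the collagen chaperone of the endoplasmic reticulum, with 144 to 327 CPM against 0 to 28.6 CPM, the lysyl hydroxylase Plod2 with 114 to 309 CPM against 0 to 20.5 CPM, and the cross-linking oxidases Loxl1 and Loxl3. Loxl3 had 9.87 to 57.5 CPM against 0.135 to 2.97 CPM. Like Col5a2, Serpinh1 was near 0 in the F columns, where it reached 0.115 CPM. Prolyl hydroxylase, needed for a stable triple helix, was in both runs. Its alpha subunit P4ha1 had 102 to 285 CPM and 12.6 to 264 CPM, detected in all 20 BRP columns. The procollagen protease Adamts3 was among the genes with the higher median in the lower-numbered BRP columns, as were Colgalt2 and Pcolce2. Adamts3 had a median of 55.5 CPM in the lower-numbered BRP columns and 0.0386 CPM in the higher-numbered, though both overlapped.

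All 13 listed partners of laminin and collagen IV in basement membranes had at least 10 counts in a column. Of these, 3 lay wholly higher in the higher-numbered BRP columns and none wholly lower, beside 3.28% and 2.58% of all genes. Nid2, a nidogen that links laminin to collagen IV, had 54.6 to 166 CPM against 0 to 20.3 CPM. Fn1, fibronectin, had a median of 2094 CPM against 0.361 CPM, and Sparc, a collagen-binding protein, 1544 CPM against 27.0 CPM. Over the F columns Sparc ran from 0 to 3739 CPM. Hspg2, the proteoglycan perlecan, reached only 11.6 CPM. Agrn, the proteoglycan agrin, was detected in all 20 BRP columns, with 37.9 to 399 CPM in the higher-numbered and 73.4 to 587 CPM in the lower-numbered. Smoc2 had 0 counts in the higher-numbered BRP columns and 0 to 624 CPM in the lower-numbered.

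Of 14 receptor genes for collagens and laminins, 12 had at least 10 counts in a column. Of these, 2 lay wholly higher in the higher-numbered BRP columns and none wholly lower, beside 3.28% and 2.58% of all genes. Itga1, the alpha subunit of the collagen and laminin integrin alpha 1 beta 1, had 17.3 to 145 CPM against 0 to 3.34 CPM. The collagen receptor Ddr1 had 19.4 to 46.5 CPM against 0 to 11.2 CPM. The shared integrin subunit Itgb1 and the laminin receptor Dag1 were detected in all 20 BRP columns. Itgb1 had a median of 547 CPM in the higher-numbered and 128 CPM in the lower-numbered BRP columns, and Dag1 had 349 and 177 CPM, with overlap in both cases.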

How the data were processed

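The counts are the whole-number exonic and intronic counts per gene and cell that the authors deposited, without normalization, from 28 single mouse cortex cells. The submitters' processing notes name STAR 2.4.0, bcl2fastq 2.17 and mm10, without a role or order. The counting tool, annotation, strand and filters are not given in the sources used here. All 28 columns carry codes that matched no sample label, so they were 1 pooled sample, described by run of codes (BRP numbers with a gap over 10 begin a new run), and no test between cell types was made. The members and gene lists were chosen with earlier results of these data known.

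From these counts, CPM was computed as exonic counts per 1000000 exonic counts of the column, and log2(CPM + 1) where said. Genes named with values per run are the 12 detected in most columns, both chains of 9 pairs fixed by their protein, and the highest gene of each class. The other members are given in brief, and those among them with values per run (Col4a6, Col5a3, Col14a1, Col22a1, Lama2 and Lamb3) were singled out after their values were seen. Lengths, positions and overlaps were taken from the GENCODE M21 annotation (GRCm38), by symbol, for 55 of 55 members and 21825 of 23453 genes, and promoter windows from RefSeq on GRCm38.p6. Python 3.11.15, numpy 2.4.6, pandas 2.3.3, scipy 1.17.1 and matplotlib 3.10.9 were used, and R 4.3.3 with edgeR 4.0.16 (TMM) and DESeq2 1.42.0 (poscounts size factors) for scaling alone. Sums have 95% exact Poisson and shares 95% exact binomial intervals, which cover counting error only, since amplified reads without molecular identifiers are not independent molecules. Exonic depth was 838343 to 26770944 counts per column. Genes with fewer than 10 counts in every column (3 members) were left out of these counts and of their background. The single values of 1 member are not reported here, and it stays in the counts and sums. Alternatives tried were other scalings, filters, thinning, exonic with intronic counts, single runs and each column left out in turn.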

Additional observations from a re-analysis of the deposited data

How the results depend on the processing

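These are single columns without replicates of a labelled group, so a value counts as moved when it leaves the range of values that leaving out each of the 28 columns gives, and a count of genes when it changes over 1.5 times. No paired analysis was possible because the column codes carry no replicate numbers that match the labels. The median number of the 55 genes with a count per column was 26 (26 to 26 with a column left out), and became 14.5 at a minimum of 10 counts, 45.5 with intronic counts added, 16 after thinning and 10 in the F columns alone. The median summed level was 1427 CPM (1416 to 1438) in the higher-numbered BRP columns, 968 with TMM, 1330 with DESeq2 size factors and 1489 without the 10 genes of most counts. In the lower-numbered BRP columns it was 173 (172.1 to 173.5), and 132, 196 and 183 under the same settings, and 170.5 with genes under 10 counts at 0. In the F columns it was 612 (391 to 833), 1387 with TMM and 3069 with DESeq2 size factors, and over all columns 478 (391 to 565) and 702 with DESeq2 size factors. The intronic share was 65.5% (63.6% to 69.0%), 76.1% as a median over columns and 29.9% without Col19a1, a setting added after the data were examined. The median rho of the 9 pairs was 0.61 (0.56 to 0.67), 0.50 with TMM, 0.41 in columns with at least 10 counts of either chain and 0.42 in the BRP columns. It was 0.36 in the higher-numbered and 0.23 in the lower-numbered BRP columns. In the F columns it was 0.088. Col1a1 with Col1a2 and Col6a1 with Col6a2 had no rho there and were left out of that median. Signs turned for Col6a1 with Col6a2 (-0.030) and Lama4 with Lamc1 (-0.37) in columns with at least 10 counts of either, for Lama4 with Lamc1 in the BRP columns (-0.14), and for Col5a1 with Col5a2 (-0.14) and Col9a1 with Col9a2 (-0.28) in the F columns. For single pairs, 18 other values moved and 11 did not, the single BRP runs not counted. Within the higher-numbered BRP columns, signs also turned for Lama5 with Lamc1 (-0.12) and Lama4 with Lamc1 (-0.33). Within the lower-numbered they turned for Lamb2 with Lamc1 (-0.06), Lamb1 with Lamc1 (0.27), Col6a1 with Col6a2 (-0.21) and Col9a1 with Col9a2 (-0.22). The cause of these moves was not tested. The planned restriction to genes outside stretches without intronic counts was run by leaving out Col17a1, the 1 member at 0, which did not move the share. The count of genes with the higher-numbered BRP columns wholly above the lower-numbered was 6, and 5 to 7 under all settings tried (6 to 7 with a column left out). The shallowest column was F16, at 838343 exonic counts, while F1, at 14831505, detected 3 of the 55 genes. The part of depth in the F values was not tested.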

Other observations

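The RNA of genes for the enzymes that cut matrix proteins, and for their inhibitors, was measured too. Of 12 genes of matrix metalloproteinases and their tissue inhibitors (TIMPs), 11 had at least 10 counts in a column, and 2 lay wholly higher in the higher-numbered BRP columns than in the lower-numbered, and none wholly lower, beside 3.28% and 2.58% of all genes. Timp3, an inhibitor bound to the matrix, had 719 to 1849 CPM (median 1441) in the higher-numbered BRP columns, 0.246 to 200 CPM (median 11.2) in the lower-numbered and at most 30.7 CPM in the F columns. Timp4 had 14.4 to 109 CPM against at most 3.00 CPM. Timp2 was detected in all 20 BRP columns, with medians of 638 and 300 CPM and overlap between the runs. Mmp14, a membrane-bound collagenase, had 3.93 to 172 CPM (median 69.0) in the higher-numbered BRP columns and a median of 0 in the lower-numbered. The membrane-bound Mmp17 and Mmp24 had their higher medians in the lower-numbered BRP columns, at 82.7 and 19.6 CPM against 1.88 and 0.472 CPM, with overlap for both. Mmp9, the gelatinase B of inflammation, had 0 counts in every column.

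Over 50% of the intronic counts came from 1 column for 22 of the 54 collagen and laminin genes with an intronic count (40.7%), close to the 42.9% of all 17260 genes with one. Examples, chosen after their values were seen, are Col28a1, with 79.2% of its 3154 intronic counts in BRP538 and 51 exonic counts in all, and Col4a3, with 51.3% of its 4448 intronic counts in BRP528 and 272 exonic counts in all.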
